A study of Mus musculus with 106 samples.

Results

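The genes described here encode 9 subunits of Polycomb repressive complex 1 (PRC1): the chromobox proteins Cbx2, Cbx6, Cbx7 and Cbx8, the PCGF ring finger proteins Pcgf2, Pcgf3, Pcgf5 and Bmi1, and the polyhomeotic protein Phc1. They were listed by name, but with earlier results of these data known. They are 9 of the 55401 mouse genes in the deposited count table, of which 21897 are protein-coding. All 9 passed the filter on low counts in each of the 8 comparisons of HD with control libraries.

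RiboTag was used to measure RNA in mice with an expanded Huntingtin allele, a model of Huntington's disease (HD), in which Cre recombinase switches a ribosomal protein to an HA-tagged form so that an anti-HA immunoprecipitation (IP) pulls down the ribosome-bound mRNA of 1 cell type. The IP of each cell type was compared between HD and control mice, and total RNA of the same homogenates (input) represents all cells of the tissue. There were 106 libraries, 67 IP and 39 input, from 45 mice. The libraries held between 21905221 and 107753586 counts on mouse genes, with a median of 35866726.

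In the Gad2, PV and vGluT2 lines HD mice carried an expanded and a normal Huntingtin allele (Hdh Q7/Q200), and control littermates carried normal alleles only (Hdh Q7/Q7), all on the 129S4 strain background. Both genotypes were also heterozygous for the RiboTag allele (Rpl22-HA) and for a Cre knocked in at the gene of the cell type marker, so HD and control mice shared those alleles. Mice of these lines were about 9 months old. The SST line appears only in the sample labels, which give its genotypes as control and HD but neither age nor strain.

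Cerebrum without olfactory bulb gave IPs of Gad2 (6 control, 6 HD), PV (6 control, 5 HD), SST (5 control, 4 HD) and vGluT2 cells (6 control, 6 HD). Cerebellum gave IPs of Gad2 (6 control, 6 HD) and vGluT2 cells (5 control, 6 HD). Cerebral input came from all 4 lines (13 control, 12 HD) and cerebellar input from the Gad2 and vGluT2 lines (7 control, 7 HD). Each PV library pooled 2 IPs. A re-sequenced library occurs only among the HD mice, once each in the cerebral PV, cerebral vGluT2 and cerebellar Gad2 IPs.

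The IPs carried the markers of their labels in all 6 sets, with a reservation for PV and SST. Against input, Gad2 was higher by 1.75 on the log2 scale in the cerebral Gad2 IPs and by 1.83 in the cerebellar Gad2 IPs. Pvalb was higher by 2.25 in the PV IPs and Sst by 2.60 in the SST IPs. Slc17a6, which encodes vGluT2, was higher by 1.02 in the cerebral and 1.52 in the cerebellar vGluT2 IPs, where Gad2 differed by -2.65 and -2.09. The marker of cerebellar granule cells Gabra6 was also higher in the cerebellar vGluT2 IPs, by 1.31, and reached 1271 counts per 1000000 (CPM) ± 177 (SD, n = 5 controls). In the PV and SST IPs the glutamatergic markers were mixed: Slc17a6 was higher there too, by 1.19 and 1.09, while Slc17a7 was lower, by -0.94 and -0.92. Control PV libraries held 830 CPM of Slc17a7, control SST libraries 785 and control cerebral vGluT2 libraries 2061.

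PRC1 is a ubiquitin ligase built on RING1 or RNF2 and 1 PCGF protein, and it places ubiquitin on histone H2A at silenced genes. In canonical PRC1 a CBX protein reads the methyl mark that PRC2 leaves on histone H3, and a PHC protein links complexes together, whereas variant PRC1 carries RYBP or YAF2 in place of CBX. In neurons the Polycomb system keeps developmental and non-neuronal genes silent after cells stop dividing.

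Levels between genes are given as CPM per kilobase of exon. On this scale Cbx6, one of the CBX proteins abundant in neurons, had the highest level of the 9 genes in control libraries of all 6 IP sets, with means from 35.9 in cerebellar Gad2 cells to 68.6 in cerebellar vGluT2 cells. Cbx7 came next in all sets (7.12 to 19.3 CPM per kilobase) and Bmi1 after it (5.38 to 15.3). Cbx7 and Bmi1 lay within their SD of each other in the SST IPs (7.12 ± 1.01 and 6.85 ± 2.47, n = 5) and in the cerebral vGluT2 IPs (8.98 ± 1.08 and 8.97 ± 2.92, n = 6). Pcgf2, Cbx8, Phc1 and Pcgf3 followed in an order that changed between sets. Pcgf5 was 8th in all sets (1.81 to 2.08) and Cbx2 last (0.176 to 0.478), so Cbx2 rested on few reads, with 14 to 44 counts per library in the cerebellar Gad2 controls.

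**Figure D1:**
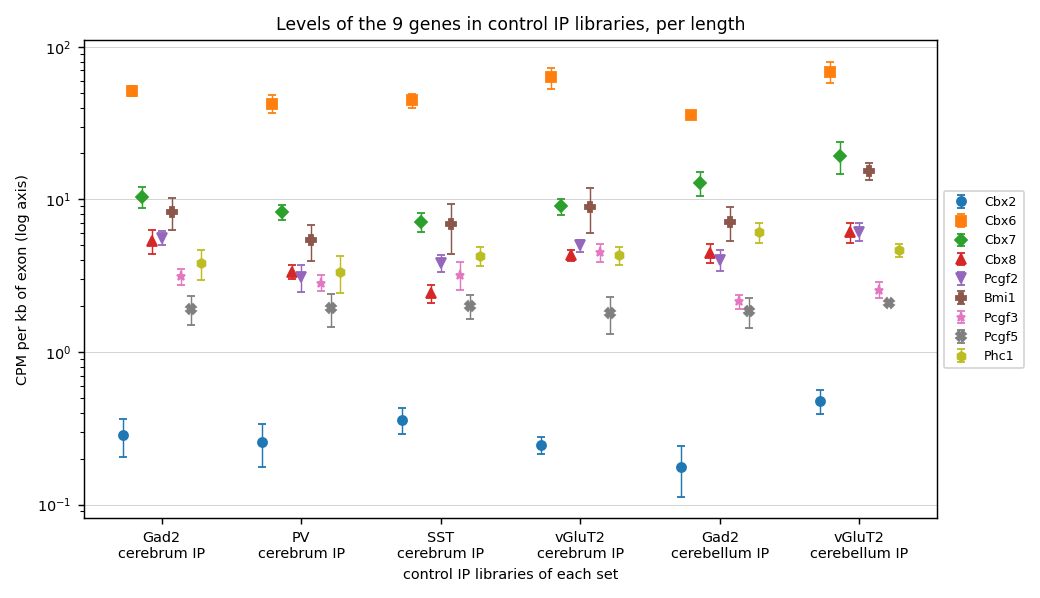
Control level of each of the 9 genes in each IP set, as CPM per kilobase of exon on a log axis, as mean with SD. Cbx6 stands above the other genes in each set and Cbx2 below them.

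Across cell types, 7 of the 9 genes had their highest control mean in the cerebellar vGluT2 IPs. Pairs of sets were compared gene by gene in 1 edgeR fit of the control IPs, and over the 15 pairs 55.2% of tests across all genes passed an adjusted p of 0.05. Mouse was not in that fit, although the cerebral and cerebellar Gad2 IPs came from the same mice, as did most of the vGluT2 ones. The number of passing pairs per member ran from 0 for Pcgf5 to 13 for Cbx8.

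Among the CBX genes, Cbx8 separated the sets most often, in 13 of the 15 pairs. Its control means fell in the order cerebellar vGluT2 (22.4 CPM ± 3.41), cerebral Gad2 (19.7 ± 3.51), cerebellar Gad2 (16.4 ± 2.30), cerebral vGluT2 (15.8 ± 1.32), PV (12.3 ± 1.29) and SST (8.92 ± 1.18), a range of 2.52-fold. Of the neighbours in that order, cerebellar vGluT2 and cerebral Gad2 did not differ, nor did cerebellar Gad2 and cerebral vGluT2. Cbx7 was higher in cerebellar vGluT2 cells (125 CPM ± 29.4) than in the next set, cerebellar Gad2 (83.4 ± 15.1, adjusted p = 1.97e-04), and no later neighbours down to SST (46.2 ± 6.57) differed. Cbx6 ran from 728 CPM ± 114 in cerebellar vGluT2 to 381 ± 23.7 in cerebellar Gad2 cells, where only the last step, from PV (451 ± 60.5), passed the test. For Cbx2, which spanned 2.04 CPM ± 0.371 in cerebellar vGluT2 to 0.751 ± 0.272 in cerebellar Gad2 cells, no neighbours differed although 8 of 15 pairs did.

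The PCGF genes differed in how far their levels varied between cell types. Bmi1, also called Pcgf4 and a partner of canonical complexes, had the widest range of the 9 genes, 2.85-fold, from 61.0 CPM ± 7.87 in cerebellar vGluT2 to 21.4 ± 5.64 in PV cells. Only its step from cerebellar to cerebral vGluT2 (35.7 ± 11.6) passed between neighbours, at an adjusted p of 7.50e-03. Pcgf2, the other canonical PCGF protein, fell from 21.7 CPM ± 2.83 in cerebellar vGluT2 through cerebral Gad2 (19.8 ± 2.16) and cerebral vGluT2 (17.6 ± 1.59) to cerebellar Gad2 (14.2 ± 2.21), SST (13.4 ± 1.71) and PV (10.9 ± 2.18), with 1 passing step, after cerebral vGluT2. Pcgf3, a subunit of variant complexes, was highest in cerebral vGluT2 cells (43.1 CPM ± 5.81), above SST (30.7 ± 6.54), and lowest in cerebellar Gad2 cells (20.5 ± 2.18), below cerebellar vGluT2 (24.4 ± 2.92, adjusted p = 0.0498). Pcgf5, its paralog, was the flattest gene, between 22.9 CPM ± 6.19 and 26.3 ± 0.967, with 0 of 15 pairs passing in edgeR.

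Phc1 had another order, with cerebellar Gad2 cells highest (32.3 CPM ± 4.87), then cerebellar vGluT2 (24.7 ± 2.41), and PV lowest (17.8 ± 4.89). No neighbours passed for Phc1, and 5 of its 15 pairs did.

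IP was compared with input of the same region, which differs from it both in cells (targeted against all) and in preparation (ribosome-bound against total RNA), and these were not told apart. Of all genes tested in the cerebral Gad2 IPs, 34.5% were higher and 33.5% lower than in input, and of the 9 members 3 were higher and 3 lower. PV IPs had 37.3% higher and 38.9% lower, with members at 1 and 5. In the SST IPs 33.9% were higher and 35.7% lower, against members at 1 and 4. Cerebral vGluT2 IPs had 34.8% and 33.6%, with 2 members each way. Cerebellar Gad2 IPs had 34.7% and 32.6%, with members at 0 and 7. For cerebellar vGluT2 IPs the shares were 32.3% and 36%, with members at 2 and 3. Lower members outnumbered higher ones in 4 of the 6 sets.

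Without regard to mouse, both Phc1 and Cbx2 were lower in the IP than in input in 6 of 6 sets. Phc1 differed by -0.36 (SE 0.09, cerebellar Gad2) to -0.91 (SE 0.07, PV) on the log2 scale. Cbx2 differed by -0.47 (SE 0.14, SST) to -2.03 (SE 0.16, cerebellar Gad2). Cbx8 was higher in the cerebral Gad2 (0.75, SE 0.10), cerebral vGluT2 (0.37, SE 0.09) and cerebellar vGluT2 IPs (0.64, SE 0.11), and lower in the SST IPs (-0.48, SE 0.11). Cbx6 was higher in both vGluT2 IPs (0.28 cerebral, 0.59 cerebellar) and lower in the PV (-0.19) and cerebellar Gad2 IPs (-0.26). Pcgf5 was higher in 3 cerebral sets (0.56 Gad2, 0.82 PV, 0.86 SST). Pcgf3 was lower in 4 sets, by up to -0.50 in the cerebellar Gad2 IPs, where Pcgf2 (-0.55), Bmi1 (-0.53) and Cbx7 (-0.24) were lower as well.

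Some mice gave both an IP and an input library, and when only these were fitted, paired by mouse, several of the calls were lost. Phc1 kept its call in 6 of 6 sets. Cbx2 kept it in the cerebral Gad2 and both cerebellar sets and lost it in PV (-0.44, adjusted p just over 0.05), SST (-0.39, adjusted p = 0.239) and cerebral vGluT2 (-1.65, adjusted p = 0.167). In the cerebral vGluT2 set Cbx8 (0.35, adjusted p = 0.0956) and Cbx6 (0.23, adjusted p = 0.0535) also lost theirs. Pcgf3 lost its call in cerebral Gad2 (-0.23, adjusted p = 0.143), PV (-0.23, adjusted p = 0.0732) and cerebellar vGluT2 (-0.20, adjusted p = 0.406). The other losses were Pcgf5 in cerebral Gad2 (0.50, adjusted p = 0.0902), Pcgf2 in PV (-0.31, adjusted p = 0.0680) and Bmi1 in cerebellar Gad2 (within 1 standard error of 0). The paired fits held fewer libraries.

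By edgeR the HD effect on the members was called in 2 of the 8 comparisons, both cerebellar, and by DESeq2 in 4, of which 1 was cerebral. In the cerebellar vGluT2 IPs edgeR called 2.11% of all genes (285 of 13487) and 2 of the 9 members, Cbx8 and Cbx2, both higher. With 1 library left out the gene count was 149 to 255, below the full count each time. In cerebellar input it called 24.5% of all genes (3544 of 14477) and 3 members, Cbx8, Cbx2 and Pcgf2, again higher. The cerebellar input count was unstable, since leaving out 1 library moved it from 96 to 7408 genes and from 1 to 6 members. DESeq2 called 4.95% of all genes and 3 members (Cbx8, Cbx2, Pcgf2) in the cerebellar vGluT2 IPs, and 34.4% and 5 members in cerebellar input.

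In the other 6 comparisons edgeR called 0 members. The share of all genes called was 0.0279% in cerebral Gad2 IPs (DESeq2 0.523%), 0.034% in PV IPs (DESeq2 0.287%), 0% in SST IPs (DESeq2 0.0136%), 0.00697% in cerebral vGluT2 IPs (DESeq2 0.176%), 0.0142% in cerebellar Gad2 IPs (DESeq2 0.156%) and 0.645% in cerebral input (DESeq2 1.43%). At an unadjusted p under 0.05 there were 3, 3, 1, 2, 2 and 1 of the 9 members in these comparisons. Over all genes the counts were 1313 of 14342, 630 of 14713, 207 of 14689, 1045 of 14354, 324 of 14098 and 1046 of 14880. DESeq2 called 0 members in the cerebral Gad2, PV and SST IPs and in cerebral input, and 1 member, Cbx8, in the cerebral vGluT2 and the cerebellar Gad2 IPs. Log2 fold changes were positive for 7, 7, 7, 4, 6 and 7 of the 9 members, with medians of 0.12, 0.14, 0.14, -0.03, 0.08 and 0.14 beside medians of all genes between -0.02 and 0.02. The cerebellar vGluT2 IPs had 6 positive members with a median of 0.13 (all genes -0.01), and cerebellar input 7 with a median of 0.20 (all genes -0.01).

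**Figure D2:**
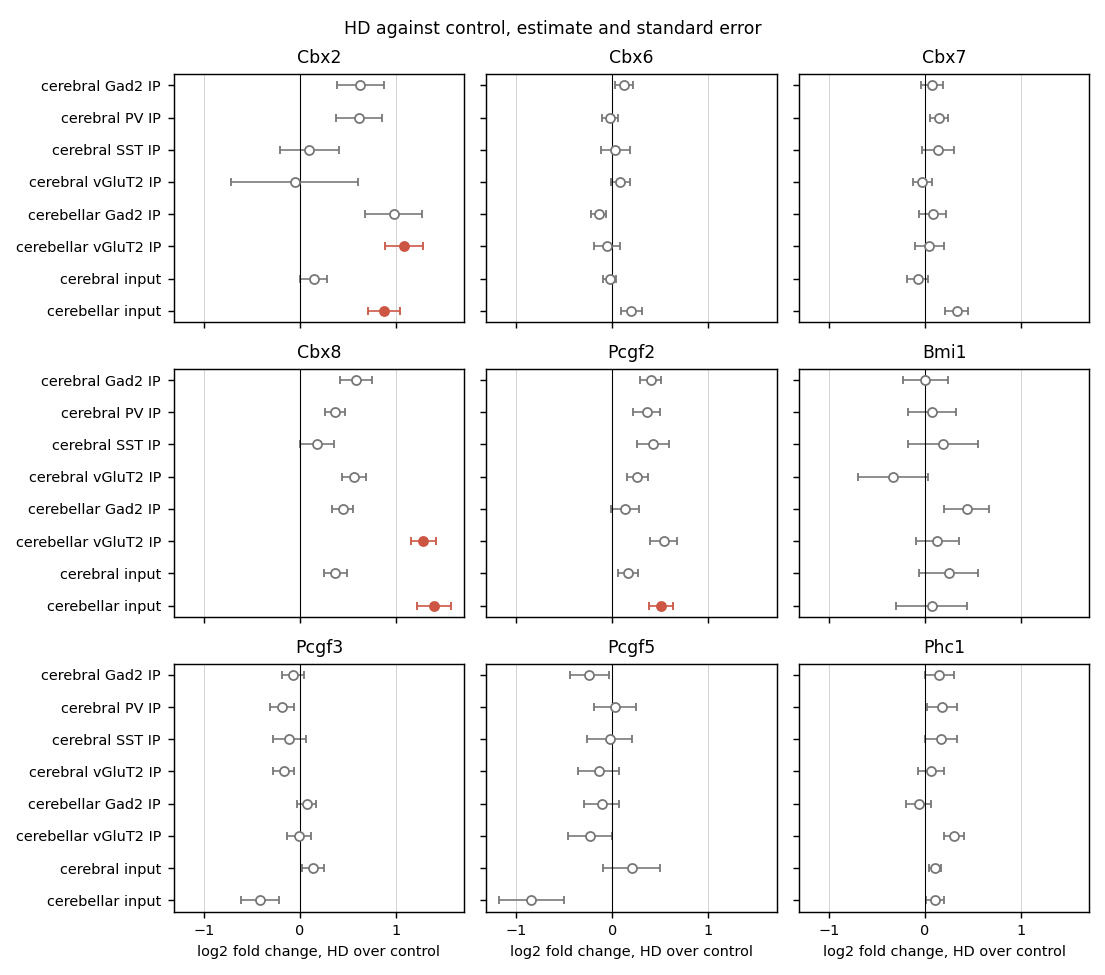
Log2 fold change of HD against control for each gene in the 8 comparisons, with bars of 1 standard error and filled points for genes called at an adjusted p of 0.05 or less. Cbx8 lies to the right of 0 in all 8, and its largest values are in the cerebellar vGluT2 IPs (1.29) and cerebellar input (1.40).

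Cbx8, a canonical CBX protein, carried the largest HD difference among the members in the cerebellar vGluT2 IPs. The 5 control libraries held 24.7, 24.2, 25.7, 18.2 and 19.4 CPM, and the 6 HD libraries ran from 43.1 through a median of 52.3 to 64.4 CPM. Every HD library lay above every control library, and no library stood between 25.7 and 43.1 CPM. The log2 fold change was 1.29 (SE 0.13, adjusted p = 2.57e-04), and leaving out any 1 library kept it between 1.23 and 1.35 and called. In bulk samples like these, a changed number of cells of a type and a changed amount of RNA per cell cannot be told apart.

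Cbx2, a CBX protein best known from embryonic development, rose in the same IPs from a low base. Its control libraries held 2.22, 2.28, 2.32, 1.93 and 1.43 CPM, and the HD libraries 3.80 to 5.09 with a median of 3.96. Here too the lowest HD library exceeded the highest control. The log2 fold change was 1.09 (SE 0.19, adjusted p = 9.08e-03) and stayed called without any 1 library (highest adjusted p 0.0348). When all IP libraries entered 1 fit, the value was 1.03 and did not pass (adjusted p = 0.0903). Groups that did not overlap, with HD above control, were found for 1.42% of all genes and for 3 members, Cbx2, Cbx8 and Pcgf2.

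The remaining CBX genes did not move in these IPs. The log2 fold changes of Cbx6 and Cbx7 were within 1 standard error of 0, and the HD libraries ran from 575 to 911 CPM for Cbx6 and from 102 to 161 CPM for Cbx7, each range overlapping the controls (537 to 822 and 100 to 176 CPM).

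A marker of the targeted cells also passed in the cerebellar vGluT2 IPs. Of 4 granule cell genes 0 were called higher and 1 lower, Neurod1 (-0.87, adjusted p = 9.14e-03), and their median log2 fold change was -0.46 beside -0.01 over all genes. Their summed level was 4260 CPM ± 590 in controls (SD, n = 5) and 3044 ± 566 in HD (n = 6), and the most abundant, Gabra6, had means of 1271 and 963 CPM without passing (-0.37, adjusted p = 0.252). None of the 4 was at 0 in any of these libraries. Slc17a6 and Slc17a7 did not pass either. In the same IPs 4 of 5 microglial genes (median 0.24) and 3 of 3 endothelial genes (median 0.20) were positive with 0 called, at sums of 7.88 and 8.74 CPM for microglia and 8.62 and 10.2 CPM for endothelium in control and HD. The part of any of these cells in the results for Cbx8 and Cbx2 was not tested.

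**Figure D3:**
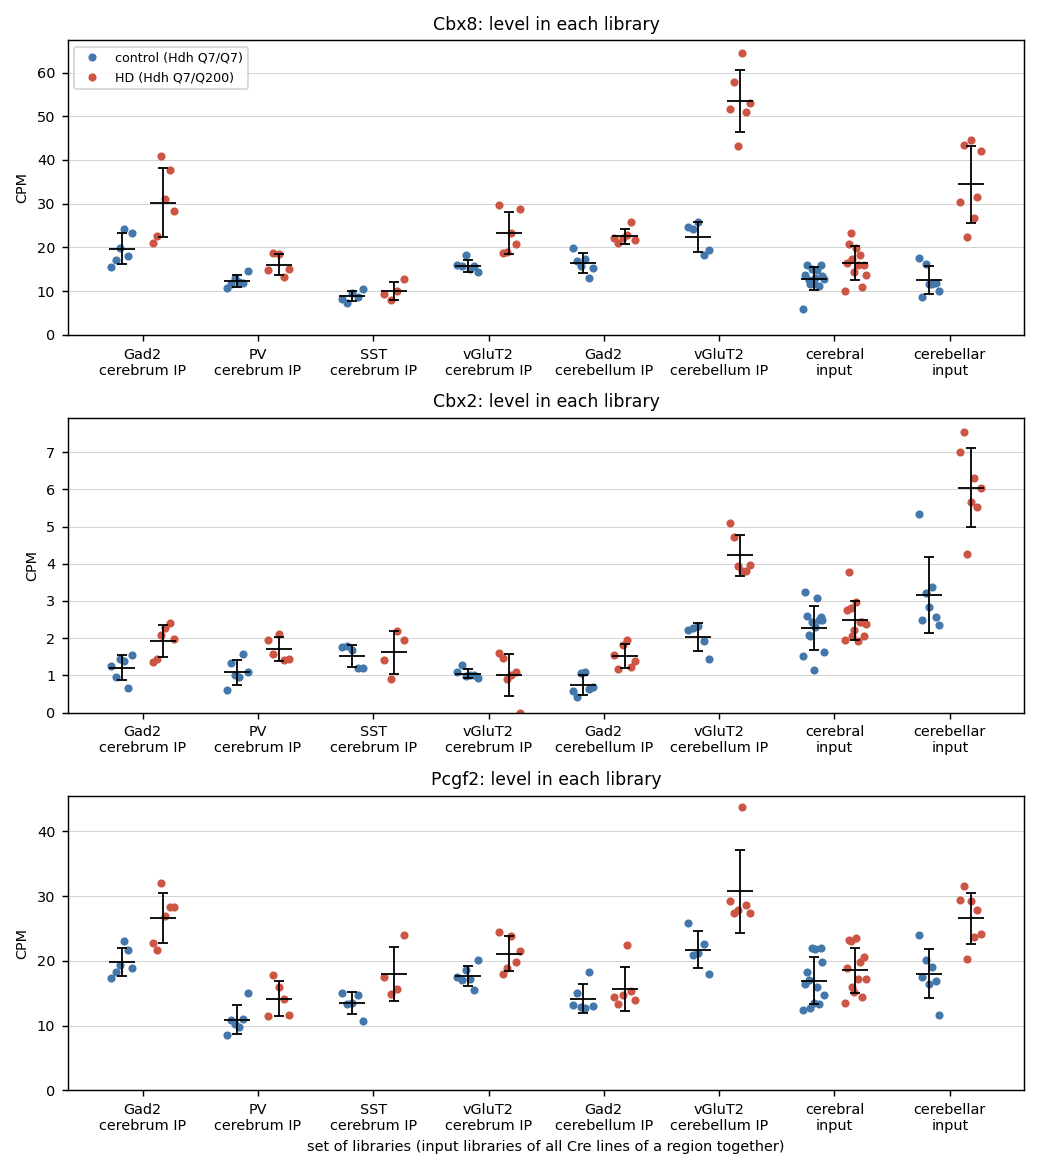
CPM of Cbx8, Cbx2 and Pcgf2 in each library of the 6 IP sets and the inputs, with control and HD libraries side by side and the mean and SD of each group. In the cerebellar vGluT2 IPs the HD libraries of Cbx8 (43.1 to 64.4 CPM) stand clear of the controls (18.2 to 25.7 CPM).

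In cerebellar input, control levels of Cbx8 ran from 8.66 through a median of 11.6 to 17.6 CPM and HD levels from 22.5 through 31.5 to 44.6 CPM. All 7 HD libraries lay above all 7 controls, in both lines. This held for 0.635% of all genes and for 1 member, Cbx8. The log2 fold change was 1.40 (SE 0.18, adjusted p = 1.22e-03). Cbx2 ran from 2.35 through 2.85 to 5.33 CPM in controls and from 4.26 through 6.03 to 7.54 in HD. Of its HD libraries 6 of 7 exceeded the highest control, a Gad2-line library. The log2 fold change of 0.88 (SE 0.17, adjusted p = 0.0185) lost its call in 3 of 14 refits with 1 library left out (vGluT2-line control 1, Gad2-line HD 2 or vGluT2-line HD 4), with an adjusted p of at most 0.0509. Cbx7 stood at 68.3, 85.9 and 111 CPM (lowest, median, highest) in controls against 75.7, 121 and 142 in HD, a log2 difference of 0.33 (SE 0.12, adjusted p = 0.0547). It passed without Gad2-line control 3 or Gad2-line HD 3 (lowest adjusted p 3.49e-03) and in DESeq2 (adjusted p = 0.0428). Cbx6 differed by 0.20 (SE 0.11, adjusted p = 0.173).

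Fits of each cerebellar input line alone, chosen after seeing the data, differed in how many genes they called. In the vGluT2 line (4 control, 4 HD) 51.7% of all genes were called, and with them 5 members: Cbx8 at 1.56 (SE 0.18), Cbx2 at 0.95 (SE 0.18), Pcgf2 at 0.58 (SE 0.15), Cbx7 at 0.40 (SE 0.11) and Pcgf5 at -1.35 (SE 0.32). In the Gad2 line (3 control, 3 HD) edgeR called 0% of all genes and 0 members, with 316 genes at an unadjusted p under 0.05 and 17 called by DESeq2. Cbx8 there had a log2 difference of 1.18 (SE 0.31) and Cbx2 of 0.78 (SE 0.33), both with an adjusted p of 1. The lines had different numbers of libraries, and a difference between them was not tested.

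RNA of long genes differed with genotype in the same vGluT2-line inputs. The share of counts on the longest 1 in 5 genes by exon length was 23.3, 23.5, 22.9 and 23.5% in the 4 controls and 18.3, 16.4, 16.5 and 18.0% in the 4 HD libraries, while the Gad2 line had means of 21.3% and 20.4%. Over cerebellar input as a whole, the median log2 fold change was 0.23 in the shortest 1 in 5 genes and -0.42 in the longest. In the cerebellar vGluT2 IPs those medians were -0.03 and 0.00, next to a Cbx8 difference of 1.29. Some microglial genes were higher in cerebellar input, 3 of 5 called (Csf1r 0.51, C1qa 0.60, Tmem119 0.66), with Cx3cr1 near 0 and P2ry12 negative (-0.33, adjusted p = 0.370), and with sums of 80.5 and 136 CPM in control and HD vGluT2-line libraries and 90.4 and 95.4 in the Gad2 line. Csf1r, the most abundant of them, had means of 31.7 and 61.2 CPM in the vGluT2 line, and none of the 5 was at 0 in a library. Of 5 Purkinje cell genes 2 were called lower, Calb1 (-0.56) and Foxp2 (-1.32), 0 were called higher and 1 was positive (median -0.55). What part long genes or these cells had in the members' results was not tested.

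In the cerebellar Gad2 IPs, Cbx8 and Cbx2 were higher in every HD library than in every control without passing the test. Cbx8 ran from 12.9 through 16.4 to 19.8 CPM in controls and from 21 through 22.1 to 25.8 in HD, a log2 difference of 0.44 (SE 0.11, adjusted p = 0.707). DESeq2 called it (0.46, adjusted p = 9.62e-03). Cbx2 ran from 0.414 through 0.673 to 1.08 CPM and from 1.18 through 1.46 to 1.95, a log2 difference of 0.98 (SE 0.30, adjusted p = 1). Such separation was found for 0.192% of all genes. Cbx6 differed by -0.14 (SE 0.08), and Cbx7 was within 1 standard error of 0.

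Among the cerebral IPs the groups of Cbx8 separated in the vGluT2 set only, as they did for 0.167% of all genes. There its controls ran from 14.3 through 15.7 to 18.2 CPM and the HD libraries from 18.7 through 22.0 to 29.7 (log2 fold change 0.56, SE 0.13, adjusted p = 0.429), and DESeq2 called it (0.57, adjusted p = 0.0451). In the cerebral Gad2 IPs it ran from 15.4 through 18.9 to 24.3 CPM and from 20.9 through 29.7 to 40.8 in HD, with 4 of 6 HD libraries above all controls (0.58, SE 0.16, adjusted p = 0.395). It passed there when all IP libraries entered 1 fit (0.63, adjusted p = 0.02). PV controls ran from 10.8 through 12.0 to 14.5 CPM, and the 5 HD libraries held 14.8, 18.8, 18.5, 13.1 and 15.1, of which 4 exceeded the highest control (0.36, SE 0.10, adjusted p = 0.667). SST IPs gave the smallest difference, with 8.31, 7.39, 9.68, 8.76 and 10.4 CPM in controls and 9.40, 7.98, 10.1 and 12.7 in HD. Only 1 SST HD library lay above all controls, and the value was 0.18 (SE 0.18).

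Cerebral input had 13 control libraries of Cbx8 from 6 through 13.0 to 16.0 CPM and 12 HD libraries from 9.95 through 16.1 to 23.3. Of the latter 6 exceeded the highest control, and the log2 fold change was 0.37 (SE 0.12, adjusted p = 0.265). The lines were not all alike in direction: group means were higher in HD in the Gad2, PV and SST lines, while the vGluT2 line held 15.9, 13.4 and 12.8 CPM in controls and 10.9, 15.9 and 13.7 in HD, with a slightly lower HD mean. With lines pooled, Cbx8 was positive in 8 of 8 comparisons, and it kept that sign in each of the other settings run for them and in each refit with 1 library left out. These comparisons are not independent, since several cell types and inputs came from the same mice.

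Cbx2 in the cerebrum had smaller counts and a wider scatter. In the Gad2 IPs its controls ran from 0.662 through 1.32 to 1.54 CPM and HD from 1.37 through 2.03 to 2.41, with 4 of 6 HD libraries above all controls (0.63, SE 0.25, adjusted p = 0.536). In the PV IPs controls ran from 0.598 through 1.05 to 1.57 CPM and the HD libraries held 1.96, 1.58, 2.12, 1.40 and 1.45, of which 3 were above all controls (0.62, SE 0.24, adjusted p = 1). The groups overlapped in both sets. In the SST and cerebral vGluT2 IPs the difference was within 1 standard error of 0, and the re-sequenced vGluT2 HD library had 0 counts, which allows up to 0.0606 CPM by counting error alone. Cbx6 and Cbx7 showed no called HD difference in the cerebrum, with values between -0.14 and 0.20 for Cbx6 over all 8 comparisons and 6 of 8 positive for Cbx7.

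Pcgf2, which pairs with CBX proteins in canonical complexes, was positive in 8 of 8 comparisons, at most 0.53. In the cerebellar vGluT2 IPs its controls held 25.8, 21, 21.2, 22.6 and 18.0 CPM and the HD libraries ran from 27.4 through 28.3 to 43.7. All 6 HD libraries exceeded the controls, 1 of them (replicate 4) far above the rest, and the log2 fold change was 0.53 (SE 0.14, adjusted p = 0.0699). DESeq2 (0.52, adjusted p = 0.0152) and the fit of all IP libraries (0.48, adjusted p = 0.0268) called it. In cerebellar input it ran from 11.7 through 17.4 to 24.1 CPM in controls and from 20.4 through 27.8 to 31.5 in HD, with 5 of 7 HD libraries above all controls. That difference was called at 0.51 (SE 0.13, adjusted p = 0.0280), but not in 9 of 14 refits with 1 library left out (Gad2-line control 2, vGluT2-line controls 1, 2, 3 or 4, Gad2-line HD 2, or vGluT2-line HD 2, 3 or 4), where the adjusted p reached 0.0658.

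In the cerebral IPs Pcgf2 differed by 0.40 (SE 0.11, adjusted p = 0.395) in Gad2 cells, from 17.3 through 19.2 to 23.1 CPM in controls and 21.6 through 27.6 to 32.1 in HD. The PV value was 0.36 (SE 0.14) and the vGluT2 value 0.26 (SE 0.11). In the SST IPs the controls held 15.1, 13.3, 13.5, 14.7 and 10.7 CPM and HD 17.5, 14.9, 15.7 and 24.0, so that 3 of 4 HD libraries exceeded all controls (0.42, SE 0.17, adjusted p = 1). The cerebral Gad2 and SST groups each overlapped. Pcgf2 was within 1 standard error of 0 in the cerebellar Gad2 IPs and differed by 0.16 (SE 0.11) in cerebral input.

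Beside these cerebral values, the 5 microglial genes were all positive in the Gad2 IPs (0 called, median 0.84, all genes -0.01), with sums of 85.4 CPM ± 27.3 in controls and 143 ± 67.7 in HD (n = 6 each). Csf1r, the most abundant, had means of 32.6 and 59.8 CPM, and none of the 5 was at 0 in a library. In the SST IPs all 5 were positive as well (0 called, median 0.29), beside the Pcgf2 value of 0.42. Their medians were -0.21 and -0.31 in the PV and cerebral vGluT2 IPs, where Cbx8 and Pcgf2 were positive. Endothelial genes were positive in the SST IPs too, 3 of 3 with 0 called (median 0.29), against 1 of 3 in each other cerebral IP set. The 4 striatal projection neuron genes were negative in all cerebral IP sets with 0 called. Medians there were -0.57 in Gad2, -0.51 in PV, -0.39 in SST and -0.44 in vGluT2 IPs. The part of RNA of these cell types in the cerebral values was not tested.

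Pcgf5 and Pcgf3, subunits of variant complexes, were negative in 6 of 8 comparisons each and called in none by edgeR. Many of these values were near 0. Pcgf5 was within 1 standard error of 0 in the PV, SST, cerebral vGluT2 and cerebellar Gad2 IPs and in cerebral input. The same held for Pcgf3 in the cerebral Gad2, SST, cerebellar Gad2 and cerebellar vGluT2 IPs. Pcgf5 stood in cerebellar input at 11.9, 25.7 and 33.6 CPM (lowest, median, highest) in controls and at 6.16, 14.9 and 26.4 in HD, a log2 difference of -0.84 (SE 0.33, adjusted p = 0.0704) with wide overlap. It passed without Gad2-line control 1, Gad2-line control 3 or Gad2-line HD 3 (lowest adjusted p 0.0130) and in DESeq2 (-0.85, adjusted p = 0.0283). Pcgf3 in the same input ran from 29.0 through 32.5 to 38.1 CPM in controls and from 11.2 through 29.5 to 35.6 in HD (-0.41, SE 0.20, adjusted p = 0.120), and passed without Gad2-line HD 3 (adjusted p = 0.0427). No HD library of either gene exceeded the highest control there. Both are long genes (12629 and 9544 exon bases), and the longest 1 in 5 genes had negative medians in cerebellar input (-0.42), the cerebral Gad2 IPs (-0.17) and the cerebral vGluT2 IPs (-0.13). The median of those genes was -0.06 in the SST IPs and 0.07 in cerebral input. It was near 0 in the PV (-4.62e-03), cerebellar Gad2 (-4.89e-03) and cerebellar vGluT2 IPs (2.97e-03). Cbx6, also a long gene (10609 exon bases), was positive in cerebellar input (0.20, not called). In every refit with 1 library left out it was positive in the cerebral Gad2 (0.08 to 0.19) and vGluT2 IPs (0.06 to 0.16). Over the 8 comparisons Cbx6 was positive in 4 and negative in 4. The part of length in these values was not tested. In the IPs Pcgf5 differed by -0.24 (SE 0.20) in cerebral Gad2 and -0.23 (SE 0.23) in cerebellar vGluT2 cells, and Pcgf3 by -0.18 (SE 0.12) in PV and -0.17 (SE 0.11) in cerebral vGluT2 cells.

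Bmi1 was within 1 standard error of 0 in 7 of 8 comparisons. The exception was the cerebellar Gad2 IPs, where controls ran from 14.5 through 30.4 to 33.4 CPM and HD from 16.6 through 41.4 to 48.7. There 5 of 6 HD libraries exceeded all controls and 1, replicate 4, stood with the lowest control (0.43, SE 0.24, adjusted p = 1).

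Bmi1 and Pcgf5 varied most between libraries of a group. Their median coefficients of variation over the 24 groups were 36.4% and 31.7%, beside 12.4% for Cbx6, and 53.5% and 43.8% in input alone. In 22 of the 24 groups the library lowest in Bmi1 was also lowest in Pcgf5, and in 13 it also held the smallest share of counts on long genes. Cbx6 was highest in that library in 14 groups and Cbx7 in 14, so the members did not scatter alike.

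Phc1, a polyhomeotic subunit of canonical PRC1, was called for HD nowhere, with 7 of 8 values positive and 1 negative, and was within 1 standard error of 0 in the cerebral Gad2, cerebral vGluT2 and cerebellar Gad2 IPs. In the cerebellar vGluT2 IPs the controls held 27.2, 21.9, 26.7, 25.2 and 22.6 CPM and the HD libraries ran from 26.3 through 29.6 to 34.3. Of these 5 of 6 exceeded the highest control, and the log2 fold change was 0.30 (SE 0.11, adjusted p = 0.182). Other values beyond 1 standard error were 0.18 (SE 0.15) in PV IPs, 0.17 (SE 0.16) in SST IPs, 0.11 (SE 0.06) in cerebral input and 0.10 (SE 0.10) in cerebellar input.

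Whether the HD effect differed between cell types, regions or preparations was tested as an interaction. Between the cerebellar vGluT2 and Gad2 IPs, 0.107% of all genes and 1 member, Cbx8, were called, the effect on Cbx8 being larger in vGluT2 cells by 0.81 (SE 0.17, adjusted p = 0.0486). DESeq2 called 0.523% of all genes and the same 1 member (0.82, adjusted p = 4.65e-04). The edgeR call was narrow, lost in 15 of 23 refits with 1 library left out, whose adjusted p ran from 0.0142 to 0.0986. The libraries were Gad2 control 1, 2, 4 or 6, vGluT2 control 1, 4 or 5, Gad2 HD 1, 2, 3, 5 or the re-sequenced one, and vGluT2 HD 2, 4 or 6. Pcgf2 (0.37, SE 0.22, adjusted p = 0.770) and Phc1 (0.33, SE 0.17, adjusted p = 0.734) did not pass, and the difference for Cbx2 was within 1 standard error of 0.

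Between the cerebellar and cerebral vGluT2 IPs edgeR called 0.323% of all genes and 0 members, with 46 genes called in all. Cbx8 differed by 0.74 (SE 0.19, adjusted p = 0.111), and it passed without the re-sequenced cerebral HD library (adjusted p = 0.0372). Most of these mice gave both IPs, and pairing them by mouse gave 0.78 (SE 0.17, adjusted p = 0.0961) with 31 genes called. DESeq2 called 0.888% of all genes and 1 member, Cbx8 (0.72, adjusted p = 0.0252). Cbx2 differed by 1.16 (SE 0.68, adjusted p = 0.764). Between the cerebellar vGluT2 IPs and cerebellar input edgeR called 0% of all genes, hence 0 members, with 2918 genes at an unadjusted p under 0.05 and 448 called by DESeq2. That count of 0 rose to 2494 genes when Gad2-line HD input 3 was left out. Mouse was not in this fit, although several vGluT2-line mice gave both libraries, and the input also held Gad2-line mice. Here Cbx8, Cbx2 and Pcgf2 were within 1 standard error of 0, and the largest member difference was 0.62 (SE 0.46, adjusted p = 0.421) for Pcgf5.

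The rest of the Polycomb system moved less than Cbx8 in the IPs. Fixed lists held 9 other core and canonical PRC1 genes, 14 variant PRC1 partners, 12 PRC2 genes, 6 H2A deubiquitinases and their partners, 3 heterochromatin chromobox genes and 4 cell cycle brakes that Polycomb is known to silence. By edgeR 0 genes of any list were called in any of the 6 HD comparisons of IPs, in which 0, 1, 2, 4, 5 and 285 genes were called in all. In the cerebellar vGluT2 IPs the list medians were -0.07 for core PRC1 (7 tested, smallest p for Scmh1 and Phc2), 0.07 for variant partners (Yaf2, Dcaf7), -0.02 for PRC2 (Phf1, Ezh1), 0.09 for deubiquitinases (Usp16, Bap1), -0.31 for heterochromatin chromobox genes (Cbx1, Cbx3) and 0.33 for the 3 tested cell cycle brakes (Cdkn2b, Cdkn1a), beside -0.01 over all genes.

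In input some of these genes passed, in cerebellar input against 24.5% of all genes called and a median of -0.42 among the longest genes, whose part in the list values was not tested. Cdkn1c, a cell cycle inhibitor, was the 1 list gene called in cerebral input (0.55, adjusted p = 0.0216) and was higher in cerebellar input too (0.75, adjusted p = 0.0388). Of 7 core PRC1 genes tested in cerebellar input Ring1, a catalytic subunit, was higher (0.53) and Phc3 lower (-1.14). Of 14 variant partners Wdr5 was higher (0.45) and Usp7 (-0.43), Auts2 (-0.43) and Mga (-1.60) lower. Rbbp4 was higher (0.52) and Jarid2 lower (-0.81) among 12 PRC2 genes. Among 6 deubiquitinase genes Bap1, which removes the ubiquitin that PRC1 places, was higher (0.40) and Usp16 (-1.64), Asxl2 (-0.82) and Mysm1 (-1.15) lower. The medians were 0.06, -0.06, -0.38 and -0.85 for these 4 lists, -0.59 for the heterochromatin genes (0 of 3 called) and 0.61 for the cell cycle brakes, beside -0.01 over all genes.

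Genes whose levels followed the members most closely were sought over the 67 IP libraries, as Pearson correlations of log2(CPM + 1) among 13141 genes with a mean of at least 1 CPM. The libraries share cell types and mice, so the values describe likeness only. Cbx8 was most like Snx17 (r = 0.878) and Irf2bp1 (0.875), and Cbx2 most like Ccnd1 (0.844) and Pcsk7 (0.799). The r between Cbx2 and Cbx8 themselves was 0.581. Cbx6 was closest to Svop (0.951) and Fam171a2 (0.945), and Cbx7 to Selenom (0.965) and Retreg3 (0.954). Among the PCGF genes Pcgf2 resembled Mfsd10 (0.861) and Rfx1 (0.845), Pcgf3 resembled Cav2 (0.894) and Mex3b (0.881), Pcgf5 resembled CT030661.1 (0.897) and Rab39b (0.870), and Bmi1 resembled Heca (0.945) and Mier3 (0.918). The highest values for Phc1 were lower, with Cdh22 (0.784) and Kctd2 (0.783). After group means were removed, the values fell to 0.420 and 0.395 for the genes of Cbx2 and to 0.524 and 0.587 for those of Cbx8, so much of that likeness lay between groups. Bmi1 (0.960 and 0.936) and Pcgf5 (0.953 and 0.925) kept theirs within groups.

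On the genome (GRCm38.p6), the CBX genes lie in a pair of neighbourhoods. Cbx2 (ENSMUSG00000025577.7, chr11:119022962-119031270, plus strand) and Cbx8 (ENSMUSG00000025578.9, chr11:119036305-119040969, minus strand) are 5034 bases apart on opposite strands, and these were the 2 members called in the cerebellar vGluT2 IPs. Cbx6 (ENSMUSG00000089715.12, chr15:79823896-79834688) and Cbx7 (ENSMUSG00000053411.16, chr15:79915807-79971119), both on the minus strand, are 81118 bases apart. Cbx6 overlaps Npcd on the same strand and Cbx7 overlaps Apobec3 on the opposite strand. Pcgf5 overlaps the snRNA gene Gm23170, the antisense gene F530104D19Rik and the processed pseudogenes Gm47773 and Gm9042. No overlapping gene was found for Cbx2, Cbx8 or the rest. The other positions are Pcgf2 (ENSMUSG00000018537.16, chr11:97688823-97700497, minus), Pcgf3 (ENSMUSG00000033623.13, chr5:108461232-108506976, plus), Pcgf5 (ENSMUSG00000024805.16, chr19:36348309-36460970, plus), Bmi1 (ENSMUSG00000026739.13, chr2:18677018-18686629, plus) and Phc1 (ENSMUSG00000040669.14, chr6:122317731-122340561, minus).

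Promoters from RefSeq (GRCm38.p6, 250 bases before to 50 after the gene start) matched 8 of the 9 members with 10 promoters, Cbx2 having none in the table. Of 4 motifs searched on both strands, GGGCGG was found in 7 of the 10 and in 35.7% of all 32851 promoters, CCAAT in 3 (37.4%), CACGTG in 4 (7.15%) and TATAAA in 0 (13.6%). The promoters of Cbx8 and Pcgf2, the members positive in all 8 comparisons, are shown, and each holds a CACGTG and a GGGCGG. The promoters of Bmi1 and Cbx6, members not called for HD, hold both motifs as well. Capitals mark motif matches on either strand, and a match is a description of sequence, not of binding.
Cbx8, chr11:119040864-119041163, minus strand: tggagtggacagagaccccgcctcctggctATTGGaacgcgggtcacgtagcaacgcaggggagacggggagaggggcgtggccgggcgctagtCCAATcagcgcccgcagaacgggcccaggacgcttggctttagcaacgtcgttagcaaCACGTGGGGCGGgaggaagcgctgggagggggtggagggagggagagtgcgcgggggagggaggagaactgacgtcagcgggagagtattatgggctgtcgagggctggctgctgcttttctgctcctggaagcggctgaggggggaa
Pcgf2, chr11:97699599-97699898, minus strand: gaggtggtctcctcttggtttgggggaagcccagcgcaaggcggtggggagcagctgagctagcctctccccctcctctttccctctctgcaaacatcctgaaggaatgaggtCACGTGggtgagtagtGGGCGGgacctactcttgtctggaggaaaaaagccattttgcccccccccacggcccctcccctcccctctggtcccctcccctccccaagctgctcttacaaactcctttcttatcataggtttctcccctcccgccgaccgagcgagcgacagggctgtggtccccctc

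Htt, the gene that carries the expanded allele, was lower in HD in the cerebral vGluT2 IPs (-0.63, adjusted p = 0.0444), in cerebral input (-0.50, adjusted p = 1.85e-03) and in cerebellar input (-0.49, adjusted p = 0.0301). In the other 5 IP sets it was negative without passing in edgeR. The cerebral vGluT2 call was narrow: Htt was the 1 gene called there, and 0 genes were called with DESeq2 size factors, with no filter on low counts or with the replicate block. With 1 library left out, 1 gene was called only without control 5 or the re-sequenced HD library and 0 without any other. Values of Htt itself in those refits were not kept.

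Several limits apply to these values. The members were compared as mRNA, and no protein level was measured. The SST HD libraries all came from mice of 1 numbering series and the SST controls from 2, so series and genotype are partly mixed there. Re-sequenced libraries occur only in HD groups. The PV and SST IPs held glutamatergic marker RNA, and levels there describe the IP, not a pure cell type. In groups of 3 to 6 libraries a difference that did not pass the test is not shown to be absent.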

How the data were processed

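Per the submitters' notes, the authors sequenced stranded TruSeq mRNA libraries, aligned and quantified them with STAR and Salmon in nf-core/rnaseq on GRCm38.p6 with spike-in and HA tag sequences added, and deposited estimated counts for 55401 mouse genes and 92 spike-ins. Of the mouse values 8.58% were not whole, and all were rounded here. Spike-ins (0.0903 to 4.45% of counts) were left out. CPM used TMM factors over all 106 libraries. Protein-coding genes with a mean count above 10 were tested with edgeR 4.0.16 (quasi-likelihood, Benjamini-Hochberg, called at an adjusted p of 0.05 or less), checked on simulated data, with DESeq2 1.42.0 as alternative. Input comparisons had Cre line as a covariate, and IP against input had genotype, with the mouse (from the sample labels) as a block in an alternative. Standard errors came from the quasi-likelihood F. GENCODE M21 matched 55141 genes. Replicates differed by at least 6.77 times counting error (chi-square per degree of freedom) over all genes, which need not hold for single genes with few counts such as Cbx2. The members and lists were chosen with earlier results of these data known. List genes were named where called for HD, otherwise at most 2 per list by smallest p. Values of some genes of these families are not reported here.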

Additional observations from a re-analysis of the deposited data

Results flagged for a closer look

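In 17 of 135 groups of a member's libraries, spread over 10 libraries, 1 library stood apart by Dixon's ratio (its gap to the nearest library over the whole range), where chance flags about 1 in 20.

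For Cbx6, HD library 4 of the SST IPs (638 CPM, others 415 to 440) had a ratio of 0.890. HD library 4 of the cerebellar vGluT2 IPs (911 CPM, others 575 to 681) had 0.684 for the same gene. For Cbx7, HD library 4 of the SST IPs (68.6 CPM, others 43.8 to 45.7) had 0.924. Control 1 of the cerebral vGluT2 IPs (72.1 CPM, others 52.5 to 58.4) had 0.698 for Cbx7, and control 1 of the cerebellar vGluT2 IPs (176 CPM, others 100 to 120) had 0.745. These 5 stood apart upward.

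For Pcgf2, HD library 4 of the cerebellar Gad2 IPs (22.5 CPM, others 13.3 to 15.3) had 0.776, and HD library 4 of the cerebellar vGluT2 IPs (43.7 CPM, others 27.4 to 29.3) had 0.885. For Phc1, HD library 4 of the cerebral Gad2 IPs (29.4 CPM, others 19.9 to 23.0) had 0.667, and control 6 of the PV IPs (27.4 CPM, others 13.8 to 17.4) had 0.735. These too were high.

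Libraries apart in Pcgf5 and Bmi1 were all low. For Pcgf5, control 6 of the PV IPs (12.3 CPM, others 26.1 to 28.6) had 0.846, HD library 2 of the PV IPs (15.9 CPM, others 26.2 to 29.2) had 0.768, and HD library 4 of the cerebellar Gad2 IPs (13.2 CPM, others 21.4 to 25.9) had 0.646. For Bmi1, control 4 of the cerebral Gad2 IPs (17.3 CPM, others 32.6 to 37.3) had 0.761 and control 6 of the PV IPs (10.4 CPM, others 21.8 to 25.8) had 0.744. Control 1 of the cerebral vGluT2 IPs (13.3 CPM, others 33.7 to 45.8) had 0.629 for Bmi1. In the cerebellar Gad2 IPs, control 4 (14.5 CPM, others 28.6 to 33.4) had 0.745 and HD library 4 (16.6 CPM, others 39.9 to 48.7) had 0.727.

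The HD effect on Cbx8 differed between cerebellar vGluT2 and Gad2 IPs by a log2 value of 0.81 in a test of the difference itself, narrowly (adjusted p = 0.0486) and not in 15 of 23 refits with 1 library left out.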

How the results depend on the processing

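With 1 library left out, 827 of 861 values kept sign and call, 7 gained a call and 27 lost one; under the other alternatives 447 of 492 did, 19 gained, 25 lost and 1 reversed. Where a value moved, the cause was not tested. Cerebral Gad2 IPs: 75 genes called by DESeq2, 9 with a replicate block, 20 in the fit of all IPs (1 member), 3 to 12 with 1 library left out. PV: 42, 0 and 0, with 0 to 4. SST: 2 by DESeq2, 1 with the block, 0 to 1. Cerebral vGluT2: DESeq2 25 (1 member), size factors 0, no filter 0, block 0, all IPs 5, with 0 to 1. Cerebellar Gad2: DESeq2 22 (1 member), size factors 1, no filter 1, block 0, all IPs 13, without the re-sequenced library 0, with 0 to 3. Cerebellar vGluT2: DESeq2 665, block 108, all IPs 548, and 149 (without control 1) to 255 (without HD 4). Cerebral input: DESeq2 213, block 151, without the SST line 21, and 62 to 145. Cerebellar input: block 9 (0 members), Gad2 line 0 (0 members), vGluT2 line 7565 (5 members), DESeq2 5 members, and 96 (without vGluT2-line HD 4) to 7408 (without Gad2-line HD 3) genes with 1 to 6 members. The labels give no meaning to shared replicate numbers, and not every pair correlated above 0.1 in any set: 4 of 6 in cerebral Gad2 (highest 0.720), 1 of 4 in PV, 1 of 4 in SST, 4 of 5 in cerebral vGluT2, 4 of 5 in cerebellar Gad2 (0.781), 1 of 5 in cerebellar vGluT2, 8 of 12 in cerebral input (0.986) and 2 of 7 in cerebellar input (-0.918 to 0.583). In IP against input a mouse block left 3 PV members, and in cerebral vGluT2 6134 genes and 1 member, and turned Pcgf2 to -3.51e-03. Input of the SST line alone left 3 SST members. Differences of the HD effect by DESeq2: vGluT2 minus Gad2 73 genes, cerebellar minus cerebral 126 (1 member), IP minus input 448. With 1 library left out: 13 to 25 genes and 0 to 1 members, 0 to 1 members, and 0 to 2494 genes (2494 without Gad2-line HD input 3).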
